A study of Mus musculus with 4 samples.

Results

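The DNA replication machinery was followed here through 45 genes, chosen by name as subunits of the helicase, the origin and loading factors, the polymerases, the clamp and its loader, the flap and ligation enzymes, the single-strand binding protein and the enzymes of nucleotide supply. All 45 were present among the 22691 genes of the deposited table. RNA came from mouse embryonic fibroblasts of female fetuses at E13.5, in 2 libraries homozygous for the MD1 allele of Smchd1 (MD1) and 2 libraries with wild-type Smchd1 (WT). SmcHD1 is a chromatin protein enriched on the inactive X chromosome, and the study asked what its absence does to silencing of that chromosome. Every library, WT included, was also heterozygous for the Xist deltaA mutation, carried on the X chromosome inherited from the C57BL6/J (B6) mother, and the fathers were F1 males of JF1 and C57BL6/J. The deltaA X cannot be silenced, so the X from the father, of JF1 origin, was the inactive one. F1 fathers pass on autosomal JF1 alleles in blocks, so for an autosomal gene the MD1 genotype and inherited JF1 alleles cannot be told apart.

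Replication starts when the origin recognition complex, Cdc6 and Cdt1 load the ring of Mcm2 to Mcm7 onto DNA in G1 phase. In S phase the kinase of Cdc7 and Dbf4, with Mcm10, Cdc45 and the GINS ring, turns the loaded ring into a moving helicase. Polymerase alpha with primase lays down primers, and polymerases delta and epsilon extend them on the sliding clamp, Pcna. Many of these genes are known targets of E2F factors and are transcribed as cycling cells approach S phase, which in fibroblast cultures makes them markers of proliferation.

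Total expression was deposited as FPKM, a read density scaled to transcript length and sequencing depth, and the authors gave 1 mean per genotype without the values of the libraries. No spread, standard error or p-value can therefore be given for an FPKM, and a single library could set a group mean. Ratios are given as log2 of (FPKM + 1) in MD1 over (FPKM + 1) in WT, and a gene was counted as higher or lower when this ratio reached 1.5-fold. The filter on low genes, a mean FPKM of 1 or more over the groups and above 0 in both, kept 11399 genes and all 45 replication genes. As a check of the labels, Smchd1 (chromosome 17, 71693834 to 71824683, mm9) had 1.94 FPKM in MD1 and 14.7 FPKM in WT, 13.1% of the WT level, and Xist had 26.9 FPKM in MD1 and 22.0 FPKM in WT. Of the 10 fibroblast markers 9 passed the filter, 4 of them at least 1.5-fold lower and 1, Pdgfra, higher. Among them were Vim at 2802 FPKM in MD1 and 2790 FPKM in WT and Col1a1 at 1081 and 1688 FPKM in the same order.

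Replication genes were higher in MD1 almost throughout. Of the 45 genes, 43 had a ratio above 0, 30 were at least 1.5-fold higher and 0 were at least 1.5-fold lower. Among all 11399 tested genes 6.05% were at least 1.5-fold higher, 7.65% were at least 1.5-fold lower and 50.8% had a ratio above 0. The median log2 ratio of the 45 genes was 0.64, against 0.0058 over all tested genes. The summed FPKM of the 45 genes was 1386.0 in MD1 and 872.2 in WT. In bulk RNA a different number of cells of a type and a different amount of RNA per cell cannot be told apart, and neither can genotype and any other difference between the cultures.

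The range of ratios was narrow. The 25th and 75th percentiles of the 45 log2 ratios were 0.55 and 0.80, while those of all tested genes were -0.21 and 0.21. Only Cdt1 reached 2-fold on this scale, where 1.39% of all tested genes were higher and 2.81% were lower. Just under the 1.5-fold bound lay Cdc45 at a log2 ratio of 0.58 and Mcm7 at 0.57, and just over it Orc2 and Dbf4 at 0.59 each. The 22 genes with the higher mean FPKM, 17.7 to 149.7, had a median log2 ratio of 0.61, and the other 23, at 3.63 to 16.9, had 0.70.

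**Figure D1:**
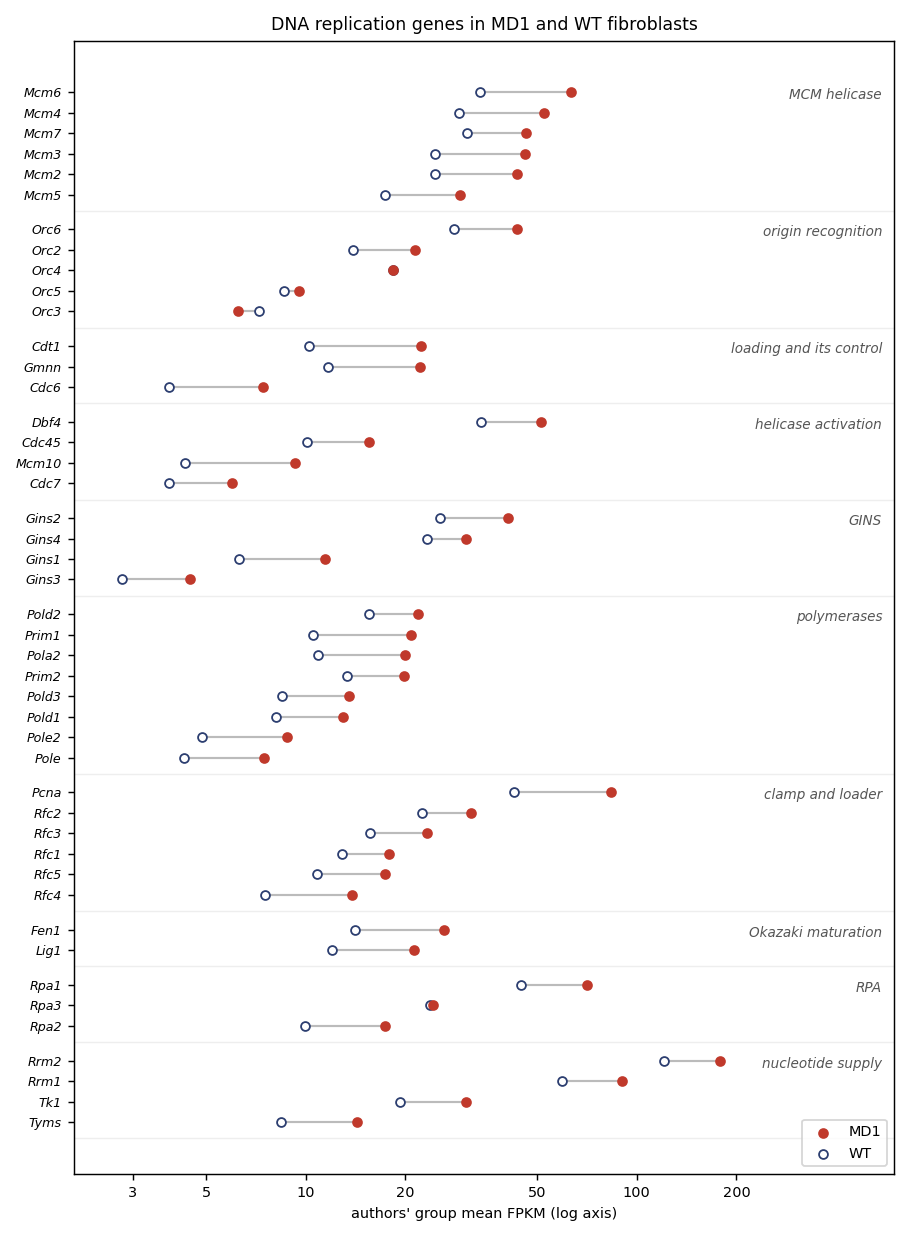
Each line is 1 replication gene, grouped by role, with the authors' mean FPKM on a log axis in MD1 (filled) and in WT (open). MD1 lies to the right of WT for 43 of the 45 genes, and the exceptions are Orc3 and Orc4 in the origin recognition group.

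The MCM ring, the motor that unwinds DNA, was higher in each of its 6 subunits. Mcm6 (chromosome 1, 130228168 to 130256233, mm9) had 63.1 FPKM in MD1 and 33.7 FPKM in WT. Mcm4 (chromosome 16, 15623990 to 15637493) had 52.3 FPKM in MD1 and 29.1 FPKM in WT. Mcm3 (chromosome 1, 20793095 to 20810294) had 45.9 FPKM in MD1 and 24.5 FPKM in WT. Their log2 ratios were 0.89, 0.83 and 0.88, and 5 of the 6 subunits were at least 1.5-fold higher. Mcm2 had 43.5 FPKM in MD1 and 24.5 FPKM in WT, and Mcm5, the least abundant subunit, had 29.3 FPKM in MD1 and 17.4 FPKM in WT. Mcm7 (chromosome 5, 138605817 to 138613090) had 46.2 FPKM in MD1 and 30.8 FPKM in WT, a plain FPKM ratio of 1.5 and a log2 ratio of 0.57. Summed over the ring the FPKM was 280.5 in MD1 and 160.0 in WT, a ratio of 1.75. The share of each subunit in that sum was close between genotypes, from 10.5% for Mcm5 to 22.5% for Mcm6 in MD1 and from 10.9% to 21.1% for the same genes in WT. Mcm7 made up 16.5% of the sum in MD1 and 19.2% in WT, and that was the widest gap of the 6 subunits.

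Loading factors had some of the highest ratios. Cdt1 (chromosome 8, 125091915 to 125097030), which brings the MCM ring to origins, had 22.3 FPKM in MD1 and 10.2 FPKM in WT, the highest log2 ratio of the 45 genes at 1.05. Gmnn (chromosome 13, 24843714 to 24853806), which encodes geminin, the inhibitor that holds Cdt1 after S phase has begun, had 22.1 FPKM in MD1 and 11.7 FPKM in WT. The FPKM of Cdt1 over that of Gmnn was 1.01 in MD1 and 0.873 in WT. Cdc6, the ATPase that loads MCM with Cdt1, had 7.42 FPKM in MD1 and 3.86 FPKM in WT, a log2 ratio of 0.79. The inhibitor and the loader it acts on were thus both higher, and all 3 genes passed 1.5-fold.

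The origin recognition complex was the group with the lowest median, 0.14, and the only one with genes below 0. Orc6 (chromosome 8, 87823531 to 87832178) had 43.4 FPKM in MD1 and 28.0 FPKM in WT, and Orc2 had 21.4 FPKM in MD1 and 13.9 FPKM in WT. Orc3 (chromosome 4, 34514030 to 34562191) had 6.24 FPKM in MD1 and 7.20 FPKM in WT, a log2 ratio of -0.18. Orc4 (chromosome 2, 48758274 to 48804787) had 18.4 FPKM in both, and Orc5 had 9.56 FPKM in MD1 and 8.57 FPKM in WT. Orc1, the subunit whose protein level follows the cell cycle and which was not among the 45, had 7.32 FPKM in MD1 and 3.95 FPKM in WT, a log2 ratio of 0.75. Within the complex, Orc6 made up 43.9% of the summed FPKM of Orc2 to Orc6 in MD1 and 36.8% in WT, while Orc4 made up 18.5% in MD1 and 24.2% in WT. How far a difference between subunits exceeds the spread of cultures could not be tested.

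Activation factors were all higher, with 2 of 4 past 1.5-fold on the scale with a pseudocount of 1. Of Dbf4, Cdc7 and Cdc45, only Dbf4 was counted, though their plain FPKM ratios were 1.52, 1.55 and 1.54. Mcm10 (chromosome 2, 4911770 to 4933837), which helps the loaded helicase to start, had 9.26 FPKM in MD1 and 4.31 FPKM in WT, a log2 ratio of 0.95. The kinase subunit Cdc7 had 5.97 FPKM in MD1 and 3.85 FPKM in WT, and its activator Dbf4 had 51.4 FPKM in MD1 and 33.8 FPKM in WT. Cdc7 over Dbf4 was 0.116 in MD1 and 0.114 in WT. Cdc45, a helicase cofactor, had 15.5 FPKM in MD1 and 10.1 FPKM in WT. In the GINS ring, the other cofactor, Gins1 had 11.4 FPKM in MD1 and 6.29 FPKM in WT and Gins2 had 40.7 FPKM in MD1 and 25.4 FPKM in WT. Gins3 had 4.47 FPKM in MD1 and 2.79 FPKM in WT, and Gins4 had 30.4 FPKM in MD1 and 23.2 FPKM in WT. Unlike the MCM subunits, the 4 GINS subunits lay far apart in level, with a 9.11-fold range in each genotype.

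Among the 8 polymerase and primase genes 6 were at least 1.5-fold higher and 0 lower, with a median log2 ratio of 0.65. Prim1 (chromosome 10, 127452271 to 127467086), the catalytic primase subunit, had 20.8 FPKM in MD1 and 10.5 FPKM in WT, a log2 ratio of 0.92. Its partner Prim2 had 19.8 FPKM in MD1 and 13.3 FPKM in WT, so that Prim1 over Prim2 was 1.05 in MD1 and 0.787 in WT. Pola2, the accessory subunit of polymerase alpha, had 19.9 FPKM in MD1 and 10.9 FPKM in WT. For polymerase epsilon, which copies the leading strand, the catalytic gene Pole had 7.49 FPKM in MD1 and 4.29 FPKM in WT, and Pole2 had 8.78 FPKM in MD1 and 4.85 FPKM in WT. For polymerase delta, which copies the lagging strand, Pold1 had 13.0 FPKM in MD1 and 8.15 FPKM in WT, and Pold3 was 1.59 times as high in MD1 as in WT in FPKM. Pold2 had the lowest ratio of the 8 genes, with 21.9 FPKM in MD1 and 15.5 FPKM in WT. The small subunit of polymerase delta, Pold4, outside the 45, went the other way, with 16.1 FPKM in MD1 and 24.9 FPKM in WT and a log2 ratio of -0.60.

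Pcna (chromosome 2, 132075022 to 132078916), the clamp, had 83.3 FPKM in MD1 and 42.7 FPKM in WT, a log2 ratio of 0.95. The 5 subunits of its loader had lower ratios than Pcna. The highest was that of Rfc4, which had 13.8 FPKM in MD1 and 7.52 FPKM in WT, a log2 ratio of 0.80. Rfc1, the large subunit, had 17.8 FPKM in MD1 and 12.9 FPKM in WT, a log2 ratio of 0.44. Rfc2 had 31.5 FPKM in MD1 and 22.5 FPKM in WT, Rfc3 had 23.3 FPKM in MD1 and 15.6 FPKM in WT, and Rfc5 had 17.4 FPKM in MD1 and 10.8 FPKM in WT. Of these, Rfc5 alone passed 1.5-fold, and the 5 loader genes summed to 103.9 FPKM in MD1 and 69.2 FPKM in WT. Of the enzymes that finish lagging-strand fragments, the flap nuclease Fen1 had 26.1 FPKM in MD1 and 14.1 FPKM in WT and the ligase Lig1 had 21.2 FPKM in MD1 and 12.0 FPKM in WT. RPA, which coats single-stranded DNA, had unequal subunits. Rpa1 had 70.9 FPKM in MD1 and 44.7 FPKM in WT, and Rpa2 had 17.3 FPKM in MD1 and 9.97 FPKM in WT. Rpa3 (chromosome 6, 8205936 to 8209141) had 24.3 FPKM in MD1 and 23.8 FPKM in WT, a log2 ratio of 0.03.

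Nucleotide supply held the most abundant of the 45 genes. Rrm2 (chromosome 12, 25393119 to 25399011), the S-phase subunit of ribonucleotide reductase, had 178.4 FPKM in MD1 and 121.0 FPKM in WT. Rrm1, its large subunit, had 90.4 FPKM in MD1 and 59.3 FPKM in WT, and Rrm2 over Rrm1 was 1.97 in MD1 and 2.04 in WT. The thymidylate synthase gene Tyms had 14.3 FPKM in MD1 and 8.39 FPKM in WT, and the thymidine kinase gene Tk1 had 30.4 FPKM in MD1 and 19.3 FPKM in WT. The log2 ratios of these 4 genes spanned 0.56 to 0.70. Rrm2b, a relative of Rrm2 known as a p53 target and outside the 45, had 4.41 FPKM in MD1 and 5.20 FPKM in WT.

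Related lists were set beside the replication genes, again without a test. Of 27 other origin and fork genes, 11 were at least 1.5-fold higher and 1, Pold4, was lower, with a median log2 ratio of 0.50. As plain FPKM ratios, without the pseudocount of 1, the median log2 ratio was 0.68 both for this list and for the 45 genes. The highest of the 27 was Pola1, the catalytic subunit of polymerase alpha, at 0.86. Top2a, the topoisomerase that untangles copied DNA, had 70.4 FPKM in MD1 and 39.3 FPKM in WT. Of 11 chromatin assembly genes 7 were higher, with a median of 0.72, led by Chaf1b, a subunit of the histone chaperone CAF-1, at 23.7 FPKM in MD1 and 10.7 FPKM in WT. The lowest of that list was the histone chaperone gene Asf1a, at 12.0 FPKM in MD1 and 9.72 FPKM in WT. Of 28 mitosis genes 19 were higher and 0 lower, with a median of 0.69, from Mki67 at 1.01 to Anln at 0.33. The median of the mitosis list lay near that of the 45 replication genes.

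Medians of the remaining lists lay between 0.10 and 0.37. Of 26 other genes of nucleotide metabolism 5 were at least 1.5-fold higher and 0 lower, with a median log2 ratio of 0.37, from Dut, the dUTPase, at 0.94 to Prps2 at -0.29. Of 17 repair, translesion and mitochondrial polymerase and ligase genes that passed the filter, 1 was higher, or 5.88%, near the 6.05% of all tested genes. That gene was Polh, which copies past ultraviolet damage, at 15.7 FPKM in MD1 and 9.52 FPKM in WT, and the lowest ratio was that of Rev3l at -0.40. Of 27 regulators of the entry into S phase 6 were higher and 3 lower, with a median of 0.18. This list holds cyclins as well as inhibitors of cyclin-dependent kinases, so its median covers genes of opposite roles. Ccne2, the cyclin E2 gene, had 20.4 FPKM in MD1 and 9.12 FPKM in WT, while E2f1 had 20.2 FPKM in MD1 and 15.2 FPKM in WT. The 3 lower genes were Cdkn1c, Cdkn1a and Rb1, with log2 ratios of -0.70, -0.64 and -0.60, while the cyclin gene Ccnd2, at -0.58, was within the bound. The 6 higher genes were Ccne2, Fbxo5, Ccne1, Skp2, Ccna2 and Rbl1, a relative of Rb1, which was at 0.64. Cdkn1a, the p21 gene, had 237.0 FPKM in MD1 and 370.1 FPKM in WT.

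**Figure D2:**
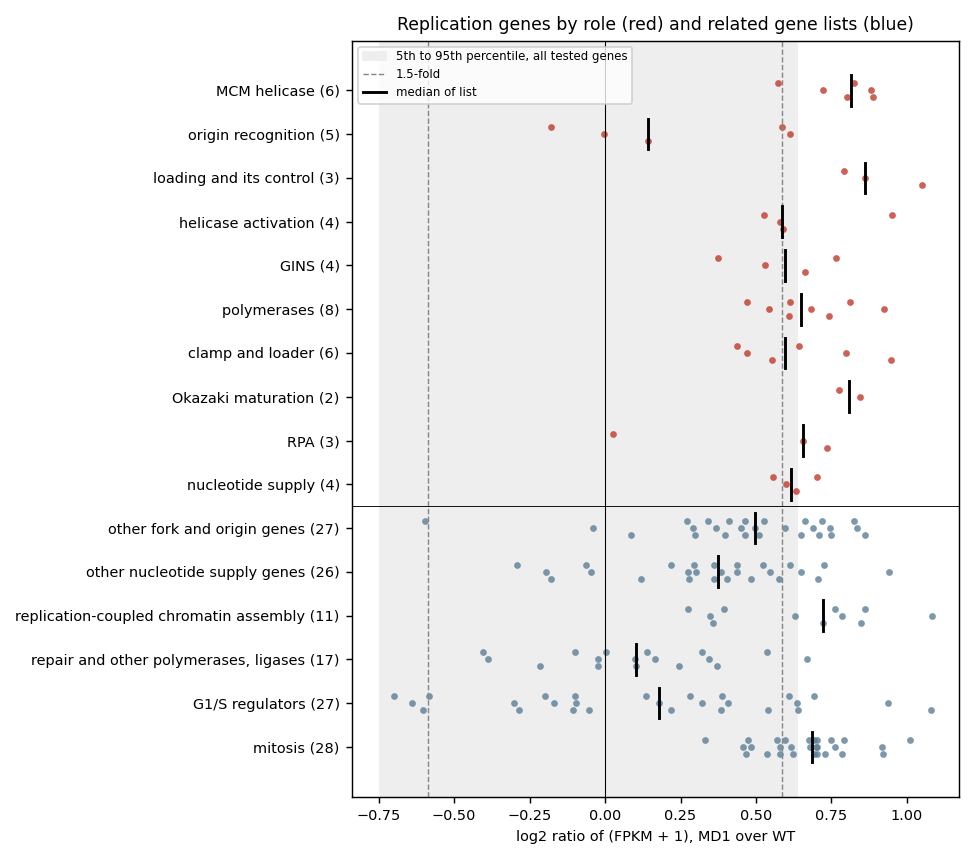
Points are genes, placed by the log2 ratio of (FPKM + 1) in MD1 over WT, in rows for the roles of the 45 replication genes (red) and for related lists (blue), with the number of genes in brackets. Black bars are medians, dashed lines mark 1.5-fold and the grey band spans the 5th to 95th percentile of all 11399 tested genes. Medians of all roles but origin recognition lie at 0.58 or above, and that of the repair polymerases lies at 0.10.

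Markers of other cell types also differed between the genotypes, in the other direction for muscle. All 8 skeletal muscle markers were lower in MD1, 6 of them past the filter, and their FPKM summed to 49.8 in MD1 and 161.0 in WT. Among those 6 the log2 ratio ran from -2.00 for Actc1, a muscle actin, to -0.60 for Tnnt2, a troponin. The 10 fibroblast markers summed to 4641 FPKM in MD1 and 5692 FPKM in WT, the 7 blood and immune markers to 106.4 and 123.9, the 5 endothelial markers to 4.93 and 7.80 in the same order. The 6 neural markers summed to 38.2 FPKM in MD1 and 28.3 FPKM in WT, and the 5 epithelial markers to 25.1 and 21.1. Of the erythroid markers 3 of 4 were found, and they summed to 0.0565 FPKM in MD1 and 0.267 FPKM in WT. In the other lists the highest and lowest log2 ratios were 0.82 for Pdgfra and -1.25 for Col3a1 (fibroblast), 0.34 for Adgre1 and -0.84 for C1qb (blood and immune), and -0.08 for Kdr and -0.99 for Emcn (endothelial). They were 0.90 for Tubb3 and -1.29 for Map2 among neural markers, and 0.35 for Krt18 and -0.07 for Krt8 among epithelial markers. No marker found was listed at 0 FPKM in either genotype. The part of culture makeup in the replication values was not tested.

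The 45 genes lay on 13 autosomes and none on X, with 10 genes on chromosome 5 and 6 on chromosome 8. The 10 on chromosome 5 had a median log2 ratio of 0.56, the 6 on chromosome 8 had 0.64 and the 4 on chromosome 2 had 0.86. Over all tested genes of these 13 chromosomes the median ranged from -0.041 to 0.048, and the percentage at least 1.5-fold higher from 3.22% to 8.38%. Overlap with another gene of the table, which could share reads, held for 8 of the 45 genes. Only that of Orc5 was on the same strand, with a gene at 0.0497 FPKM in MD1 and 0.0788 FPKM in WT. Pcna and Tyms have pseudogenes by RefSeq symbol, so their FPKM is uncertain.

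Promoter windows were compared because the genes had similar ratios and many are known E2F targets. RefSeq windows of 300 bases, from 250 before to 50 after a gene's start (GRCm38.p6), were matched by symbol for 37 of the 45 genes. The E2F words searched were TTTCCCGC, TTTCGCGC, TTTGCCGC and TTTGGCGC, on both strands, and overlapping matches were each counted. A word was held by 13 of the 37 genes, or 35.1%, against 4.86% of 8704 tested genes and 2.60% of all 27025 genes with a window. The 13 were Mcm3, Mcm5, Mcm6, Mcm7, Cdc6, Cdt1, Orc3, Gins3, Pold1, Pold3, Pole2, Rfc3 and Lig1. Within the 37, the genes with a word had a median log2 ratio of 0.72 and those without had 0.62. Among all tested genes, the replication genes included, 12.8% of the 423 with a word and 5.40% of the others were at least 1.5-fold higher in MD1. The word CCAAT, bound by NF-Y, was held by 56.8% of the 37 genes, 43.1% of tested genes and 41.1% of all genes with a window. The word TTTGAA, a cell cycle element known as CHR and found in promoters of mitosis genes, was held by 18.9% of the 37 genes, between the 13.6% of tested genes and the 20.2% of all genes with a window. A match is only a stretch of letters and does not show that a factor binds.

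**Figure D3:**
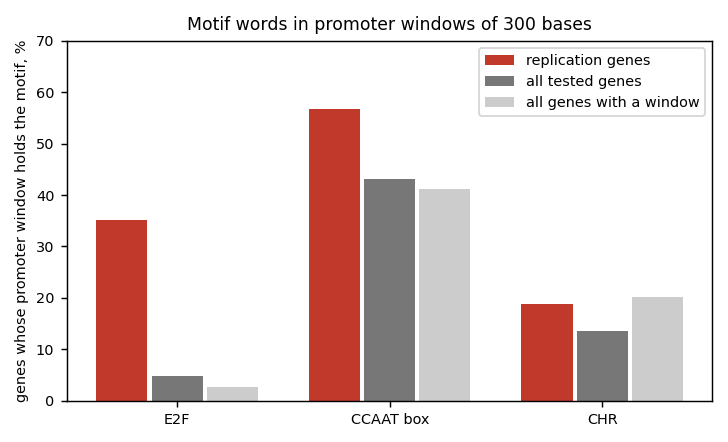
Bars give the percentage of genes with a matching word in their promoter window, for 37 replication genes, for 8704 tested genes and for all 27025 genes with a window. The E2F bar of the replication genes stands at 35.1% beside 4.86% of tested genes, while for CHR the replication genes, at 18.9%, lie below all genes, at 20.2%.

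Windows are shown, 5′ to 3′ on the gene's strand and from 170 bases before to 30 after the start, for 3 MCM genes and Cdc6, which hold an E2F word and had high ratios, and for Orc3, which holds one and had the lowest ratio. The window of Pola1 is shown as that of the X-linked gene described next. Pcna and Orc4, with a high ratio and with one near 0, hold no E2F word. Capitals mark the E2F words of either strand.
Mcm3, chr1:20820283-20820482, minus strand: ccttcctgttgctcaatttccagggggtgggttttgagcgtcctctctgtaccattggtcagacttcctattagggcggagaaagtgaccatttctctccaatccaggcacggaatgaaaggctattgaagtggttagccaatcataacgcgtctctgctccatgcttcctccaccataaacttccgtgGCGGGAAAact
Mcm5, chr8:75109339-75109538, plus strand: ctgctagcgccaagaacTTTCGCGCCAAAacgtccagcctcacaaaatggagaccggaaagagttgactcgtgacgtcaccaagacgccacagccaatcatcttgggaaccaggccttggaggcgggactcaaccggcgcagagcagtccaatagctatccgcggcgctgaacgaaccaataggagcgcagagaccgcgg
Mcm6, chr1:128359676-128359875, minus strand: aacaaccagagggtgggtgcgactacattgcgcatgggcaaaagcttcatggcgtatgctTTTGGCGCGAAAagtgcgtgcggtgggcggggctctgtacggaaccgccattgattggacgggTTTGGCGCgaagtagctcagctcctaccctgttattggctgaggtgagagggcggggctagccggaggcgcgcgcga
Cdc6, chr11:98907981-98908180, plus strand: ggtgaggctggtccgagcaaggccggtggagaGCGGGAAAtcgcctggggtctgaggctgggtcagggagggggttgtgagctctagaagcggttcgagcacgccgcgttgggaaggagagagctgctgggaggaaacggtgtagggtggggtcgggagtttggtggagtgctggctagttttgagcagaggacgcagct
Orc3, chr4:34614913-34615112, minus strand: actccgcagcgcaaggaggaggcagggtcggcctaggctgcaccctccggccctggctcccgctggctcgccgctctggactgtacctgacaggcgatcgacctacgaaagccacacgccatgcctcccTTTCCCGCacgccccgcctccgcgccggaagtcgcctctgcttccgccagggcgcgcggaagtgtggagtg
Pola1, chrX:93632126-93632325, minus strand: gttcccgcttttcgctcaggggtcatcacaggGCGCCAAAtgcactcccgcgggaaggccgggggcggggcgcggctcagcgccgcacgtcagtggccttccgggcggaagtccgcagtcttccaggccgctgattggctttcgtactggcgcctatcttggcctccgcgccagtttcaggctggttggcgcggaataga
Pcna, chr2:132253151-132253350, minus strand: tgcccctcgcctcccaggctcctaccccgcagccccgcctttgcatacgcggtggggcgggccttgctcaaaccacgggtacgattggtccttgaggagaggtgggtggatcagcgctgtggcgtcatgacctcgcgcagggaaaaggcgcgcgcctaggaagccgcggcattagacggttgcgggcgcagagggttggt
Orc4, chr2:48949238-48949437, minus strand: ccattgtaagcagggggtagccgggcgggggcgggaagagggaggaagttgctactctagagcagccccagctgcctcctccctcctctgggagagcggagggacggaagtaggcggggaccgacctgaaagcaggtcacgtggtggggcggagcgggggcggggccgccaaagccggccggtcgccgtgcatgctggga
In Mcm5 and Mcm6 a pair of words on opposite strands overlaps, and Mcm6 holds 3 matches in all. Of the genes shown, Orc3 holds a word at a log2 ratio of -0.18 and Pcna holds none at 0.95.

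Reads that tell the parental alleles apart were deposited per library for X-linked genes, and Pola1 was the replication gene among them. Maternal reads carry B6 variants and come from the active X, and paternal reads carry JF1 variants and come from the inactive X. Libraries held 521768 to 806626 such reads over the X chromosome. Pola1 (X, 90550105 to 90877494, mm9) had 759 and 990 reads in the MD1 libraries, against 328 and 452 in the WT libraries. Its paternal share was 12.6% and 8.89% in the MD1 libraries, a mean of 10.8% ± 2.66 (SD, n = 2). In WT none of the 780 reads was paternal, and a count of 0 at this depth is compatible with shares of at most 0.385%. The groups did not overlap, and the rise passed edgeR's quasi-likelihood test with an adjusted p of 1.88e-18 over 391 informative X-linked genes, of which 74.4% rose. With TMM scaling over the allele columns as a separate library size for each allele, the Pola1 call was lost (adjusted p = 0.387, edgeR). That setting compares a gene with the rest of its allele column, so it does not test the share of reads itself. The log2 odds ratio was 9.76 with that scaling, against 8.81 without it. With 0 paternal reads in WT the counts give no finite odds ratio, so the size of these values is not a measured effect. The mean share over those 391 genes was 17.9% in MD1 and 0.691% in WT.

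Most Pola1 reads in MD1 still came from the maternal allele, and their level had a higher mean in MD1 without passing the test. Per 100000 maternal reads of the informative genes, Pola1 had 140.4 and 161.0 in the MD1 libraries, against 62.7 and 89.2 in the WT libraries. Means were 150.7 ± 14.6 in MD1 and 75.9 ± 18.7 in WT (SD, n = 2 each), a ratio of 1.98 on library totals. The FPKM ratio of 1.99 covers reads of both alleles and has another scaling, so these ratios are not directly comparable. The libraries of MD1 were the higher pair and did not overlap with WT. With 2 libraries each such an order says little by itself, and how many of the 391 genes had it was not counted. The edgeR log2 fold change with TMM factors was 0.83, with a standard error of 0.21 and an unadjusted p of 0.0098. On library totals without those factors it was 0.99. With TMM factors the adjusted p in edgeR was 0.319, and the gene did not pass in this fit, which had no replicate term. With single libraries left out the log2 fold change was 0.67 to 1.04, the highest of these without WT replicate 2. Whether the gene passed depended on the library left out. With every library, 2 of the 391 genes, or 0.512%, rose by the same test and 4, or 1.02%, fell. At an unadjusted p under 0.05, 19 genes, or 4.86%, were higher. This is the only replication gene here with values per library. Pola2, Prim1 and Prim2, its autosomal partners in the same complex, had FPKM ratios of 1.82, 1.98 and 1.49.

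Of the X-linked genes that feed nucleotide synthesis, Hprt, the purine salvage enzyme, had a paternal share of 25.3% ± 1.44 in MD1 (SD, n = 2) and 0 of 1472 reads in WT, which allows up to 0.204%. Prps1 and Prps2 encode the enzymes that make the ribose phosphate donor of nucleotides. Prps1 had 1.97% ± 0.129 in MD1 and 0.137% ± 0.194 in WT (SD, n = 2 each), and Prps2 had 1.19% ± 0.189 in MD1 (SD, n = 2) and 0 of 3232 reads in WT, which allows up to 0.0928%. All 3 shares rose by edgeR, with adjusted p of 1.47e-56 for Hprt, 0.00389 for Prps1 and 3.16e-09 for Prps2. With the same TMM scaling Hprt still rose, Prps2 lost its call (adjusted p = 0.612, edgeR) and the Prps1 log2 odds ratio turned to -2.60 without passing. Without MD1 replicate 2 the Prps1 call was lost, at an adjusted p of 0.0798.

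Maternal reads of these 3 genes did not pass in the same fit as for Pola1, which had all 4 libraries and no replicate term. Per 100000, Prps1 had 88.3 and 118.5 in the MD1 libraries, against 45.3 and 71.8 in the WT libraries, a log2 fold change of 0.66 (standard error 0.26, adjusted p = 0.448, edgeR). Its libraries did not overlap between the genotypes, an order that says little by itself with 2 libraries each. With single libraries left out, the Prps1 log2 fold change was 0.43 to 0.96. Hprt had 149.9 and 221.9 in the MD1 libraries, against 126.2 and 160.2 in the WT libraries, and the groups overlapped (adjusted p = 0.754, edgeR). Prps2 had 267.8 and 333.7 in the MD1 libraries, against 299.1 and 328.8 in the WT libraries, with a log2 fold change of -0.23 (standard error 0.18, adjusted p = 0.643, edgeR). These fold changes use TMM factors, while the values per 100000 use library totals. On library totals the edgeR log2 fold change was 0.82 for Prps1 and -0.06 for Prps2. Total FPKM was 123.7 in MD1 and 84.4 in WT for Hprt, 25.7 and 16.9 for Prps1, and 11.5 and 14.2 for Prps2, in the same order.

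**Figure D4:**
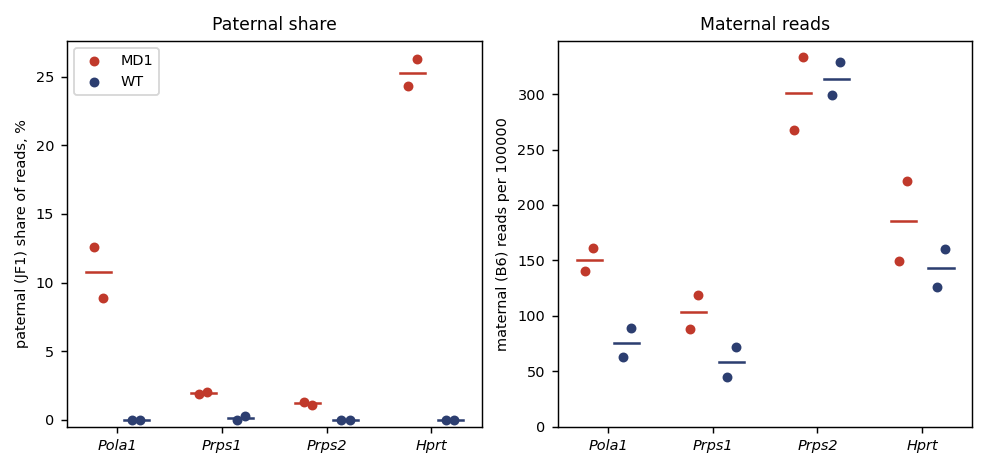
Points are single libraries, 2 for MD1 (red) and 2 for WT (blue), and bars are group means, for the paternal share of allele-specific reads in percent (left) and for maternal reads per 100000 maternal reads of informative X-linked genes (right). Pola1 has paternal shares of 12.6% and 8.89% in MD1 and 0 in WT. Its maternal reads in both MD1 libraries lie above those of both WT libraries. That order says little with 2 libraries each, and how many informative genes had it was not counted.

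Ctps2, a CTP synthase gene, and Rbbp7, a histone-binding subunit of several chromatin complexes, were the remaining X-linked genes of the lists. The paternal share was 0.972% ± 0.672 in MD1 and 0.0976% ± 0.0122 in WT for Ctps2, and 12.2% ± 0.778 in MD1 for Rbbp7 (SD, n = 2 each), with 0 of 2669 WT reads, which allows up to 0.112%. Both rose by edgeR, with an adjusted p of 0.000558 for Ctps2 and 2.97e-51 for Rbbp7, and the Ctps2 call was lost without MD1 replicate 1, at 0.188, and its log2 odds ratio turned to -2.92 with TMM scaling, without passing. Their maternal reads had log2 fold changes of 0.04 and 0.28 and did not pass, with adjusted p of 0.967 and 0.589 in edgeR.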

How the data were processed

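Polyadenylated RNA was sequenced with a stranded kit, per the labels' protocols. Cufflinks 2.2.1, Cuffdiff and the build mm9 are named, without their roles, per the submitters' processing notes. Not given in the sources used here are the aligner, the annotation, the source of JF1 variants and whether counting used strand. Reads that map better to B6 than to JF1 would lower a paternal share in both genotypes. The authors deposited FPKM as 1 mean per genotype, allele-specific read counts per X-linked gene and library, and the JF1 fraction of these counts where a gene had 10 or more. Fraction times count was whole within 0.001 for 100% of values, which gave JF1 and B6 counts.

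FPKM ratios used a pseudocount of 1 and have no test, as planned for 1 mean per genotype. X-linked genes other than Xist with a share in all 4 libraries and 20 or more reads per library on average were informative (391 genes). Paternal shares were tested with edgeR 4.0.16 (R 4.3.3), quasi-likelihood, two-sided, with library, allele and allele-by-genotype terms, and adjusted by Benjamini-Hochberg at 0.05. The test of maternal counts (edgeR, TMM factors, 472312 to 560120 reads per library) was added after the data were seen. Its standard errors come from the F statistic. Alternatives were DESeq2 1.42.0, other filters, pseudocounts, scalings and fold bounds, a replicate block and leaving out each library.

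Nothing in the labels ties each replicate to its own fetus, so the p-values reflect only how far these libraries differ, and that spread may be technical. Reads of the 2 replicates differed beyond sampling noise, with a chi-square per degree of freedom of 90.6 in MD1 and 98.1 in WT. Same-numbered libraries deviated together, at a correlation of 0.40 for maternal reads and 0.19 for paternal shares, which 2 pairs do not establish as pairing.

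Members, lists and tests were chosen with earlier results of these data known. Genes named are all 45 members, Smchd1 and Xist, the highest and lowest of each other list, E2f1, Cdkn1a, Orc1, Pola1, Top2a and Mki67, and Prps1, Prps2 and Hprt. Rb1, Rbl1, Ccnd2, Rrm2b, Ctps2, Rbbp7, Vim and Col1a1 were taken from the lists after their values were seen. Of 229 list genes 1 was matched by an older symbol and 2 were not found. Floors use 3 counts and cover counting error only. Coordinates of genes are 1-based in mm9, and promoter windows carry their own build.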

Additional observations from a re-analysis of the deposited data

How the results depend on the processing

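For the FPKM ratios, 0 of the replication genes were at least 1.5-fold lower under each of 8 alternatives, with 45 genes in each but the minimum mean FPKM of 5, which kept 43. The number at least 1.5-fold higher was 28 with quantile normalization, 30 centred on the autosomal median, without a filter or with a mean FPKM of at least 5, and 34 with a pseudocount of 0.1 or with plain ratios. With a bound of 2-fold it was 1. The median log2 ratio of these genes stayed between 0.64 and 0.68 under the 6 alternatives that could move it. None of these alternatives supplies a spread, since FPKM has 1 value per genotype.

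Paternal shares of Pola1, Prps1, Prps2 and Hprt rose in 4 of 4 genes with DESeq2, with other read minimums and with the replicate block, and in 3 to 4 with a library left out. Without single libraries the Pola1 log2 odds ratio was 8.48 to 9.12, a size that the counts do not fix with 0 paternal reads in WT. With TMM factors over the allele columns 73 informative genes and 1 of the 4 genes rose. The Pola1 call was then lost (log2 odds ratio 9.76, adjusted p = 0.387, edgeR), and Prps1 (-2.60) and Ctps2 (-2.92) were reversed without passing. That setting compares a gene with the rest of its allele column and does not test the share of reads itself. The cause of the changed calls was not tested. Maternal reads of Pola1 gained a call with the replicate block, at a log2 fold change of 0.85 (adjusted p = 0.0151, edgeR), where 2 of the 4 genes and 17 informative genes rose. The other of the 2 was Prps1, at 0.68 (adjusted p = 0.0369, edgeR). DESeq2 called 5 informative genes and not Pola1 (adjusted p = 0.0781). With single libraries left out, 0 to 14 informative genes and 0 to 2 of the 4 genes rose, and the Pola1 fold change was 0.67 to 1.04. Pola1 passed without WT replicate 2 (adjusted p = 0.00989, edgeR). Fits without a library assume that the lone library varies like the other genotype.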
